A study of Mus musculus with 19 samples.

Results

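Taurine and other small organic osmolytes let cells hold their volume when the fluid around them becomes concentrated, and 7 genes of their uptake, synthesis and control were followed here through calorie restriction (CR) in the cornea and conjunctiva of mice. The genes were *Slc6a6*, *Slc38a2*, *Slc5a3*, *Cdo1*, *Csad*, *Akr1b3* and *Nfat5*, 7 of the 24552 distinct symbols in each of the deposited tables. They were chosen by name, with earlier results of these data known, and *Slc6a6* was taken because it was higher under CR in both tissues. Its difference between diets is therefore described without a test. The other 6 genes were tested within a fit across all genes, except *Akr1b3*, which had no reads.

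Messenger RNA was sequenced from C57BL/6 mice (C57BL/6 J by the study's methods) that were fed ad libitum (AL) or kept on CR. By the labels, the cornea was sequenced in 5 libraries of each diet and the conjunctiva in 4 AL and 5 CR libraries. The labels name no genetic alteration and no agent in any group. A legend of the study gives the conjunctiva sizes the other way round, and the labels were followed. Titles carry the tags 6M and 50W in all groups, and the design text calls the mice young. The study describes them as adult or middle-aged, with a restriction that lasted several months. By the study's methods the mice were females, the restricted ration was reached in steps and given once daily just before the dark phase, the corneal sample was epithelium scraped from the eye, and the conjunctiva was excised whole. The methods describe cohorts on different chows, and in a cohort the CR chow was richer in vitamins and micronutrients than the AL chow. The titles do not name the cohort. Libraries are named below by diet and by the number in the title. The labels do not say which libraries came from separate animals, so p-values measure the spread between these libraries.

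Taurine is a sulfur-containing amino acid that is not built into proteins. Cells either take it up with sodium and chloride through TauT, the product of *Slc6a6*, or make it from cysteine, which cysteine dioxygenase (*Cdo1*) oxidizes to the substrate that the decarboxylase encoded by *Csad* acts on. Inositol enters through the sodium-coupled carrier encoded by *Slc5a3*, neutral amino acids such as glutamine enter through SNAT2 (*Slc38a2*), and sorbitol is made from glucose by aldose reductase (*Akr1b3*). NFAT5, also called TonEBP, is the transcription factor that raises several of these genes in hypertonic medium, and the surface epithelia of the eye face a tear film that becomes concentrated when it evaporates.

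By the annotation of build GRCm38.p6, *Slc6a6* (gene identifier 21366) lies on chromosome 6 from 91684048 to 91759063, *Akr1b3* (11677) on chromosome 6 from 34303930 to 34317489, and *Nfat5* (54446) on chromosome 8 from 107293435 to 107379517. *Slc38a2* (67760) lies on chromosome 15 from 96687392 to 96699728, *Csad* (246277) on chromosome 15 from 102176997 to 102205052, and *Slc5a3* (53881) on chromosome 16 from 92058322 to 92087473. *Cdo1* carries the identifier 12583. *Slc38a2* is shown here first because it was the other member past the adjusted p threshold in the cornea, and *Slc5a3* and *Nfat5* because they stand for the tonicity-regulated genes. The 250 bases before each start site, as RefSeq on GRCm38.p6 gives them, are printed 5′ to 3′ along the strand of the gene, with every GC box (GGGCGG, or CCGCCC on the other strand) in capitals. The windows are chr15:96699729-96699978 on the minus strand, chr16:92058072-92058321 on the plus strand and chr8:107293220-107293469 on the plus strand.
Slc38a2: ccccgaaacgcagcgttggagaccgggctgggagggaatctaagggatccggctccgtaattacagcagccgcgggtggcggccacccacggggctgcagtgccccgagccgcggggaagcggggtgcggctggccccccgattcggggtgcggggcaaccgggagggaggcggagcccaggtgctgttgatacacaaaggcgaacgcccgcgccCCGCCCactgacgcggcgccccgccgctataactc
Slc5a3: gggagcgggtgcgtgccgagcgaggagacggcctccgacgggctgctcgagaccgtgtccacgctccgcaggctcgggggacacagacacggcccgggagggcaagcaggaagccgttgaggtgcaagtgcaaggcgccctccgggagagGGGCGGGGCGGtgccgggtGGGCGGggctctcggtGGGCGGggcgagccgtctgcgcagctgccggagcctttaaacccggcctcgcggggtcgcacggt
Nfat5: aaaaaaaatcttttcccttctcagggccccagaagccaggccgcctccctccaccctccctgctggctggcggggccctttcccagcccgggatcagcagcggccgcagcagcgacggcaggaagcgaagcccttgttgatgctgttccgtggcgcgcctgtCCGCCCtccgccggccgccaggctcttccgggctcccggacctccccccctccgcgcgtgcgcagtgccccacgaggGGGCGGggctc
These windows hold 72%, 74.8% and 71.6% G and C, against a median of 52.4% over all windows of the table. *Slc38a2* has 1 GC box, *Nfat5* has 2, and *Slc5a3* has 4, of which the first pair share a base. A GC box occurs in 32.7% of the 32851 windows, searched on both strands over the 250 bases before each start. The E-box CACGTG, held by 6.02% of windows, the tonicity core TGGAAA (18.6%), the amino acid response core TGATGNAA (3.45%) and the D-box forms TTATGTAA and TTACGTAA (0.931%) had no match in the windows of *Slc38a2*, *Slc5a3*, *Nfat5* or *Csad*. A match or its absence concerns only these letters in this stretch. The table paired 4 of the 7 members with a window.

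Values are normalized counts, the reads of a gene after division by a size factor that the authors gave each library. Cornea libraries held between 10354125 and 14681223 counted reads and conjunctiva libraries between 10726717 and 14433441, and the diets did not differ in this past an exact permutation test (two-sided p = 0.278 and 0.778). Libraries differed in the share of features with 0 reads, which was 40.5% ± 2.70 (SD, n = 5) under AL and 44.4% ± 3.06 (n = 5) under CR in the cornea (exact permutation p = 0.0714) and 35.3% ± 1.90 (n = 4) and 37.1% ± 2.29 (n = 5) in the conjunctiva (exact permutation p = 0.238). No batch is given in the labels. In the cornea the 8 corneal epithelial markers summed to 489693 to 711022 normalized counts and the 4 skeletal muscle markers to at most 37.2. Lacrimal gland markers summed to 29263, 495, 705, 22.1 and 154 normalized counts in AL libraries 1 to 5 of the cornea and to at most 7.67 in CR libraries, so every AL library lay above every CR library, and 1 of the 4 tested, *Scgb2b24*, fell (limma adjusted p = 0.0387, 0 called by voom). The 6 leukocyte markers of the cornea summed to 296 to 379 under AL and 210 to 306 under CR. Of these, 4 were tested and all 4 were lower under CR, with 0 called by limma or by voom and 1 at an unadjusted p under 0.05. The 6 conjunctival markers, of which *Krt13* held most counts, summed to 25614 to 41989 under AL and 30629 to 63446 under CR in the cornea. Only CR 7 lay above the AL range, and the other CR libraries, at 30629 to 32078.5, lay inside it. All 4 tested were higher under CR, with 0 called by limma or by voom, 2 at an unadjusted p under 0.05 (*Krt4* and *Agr2*, log2 changes 0.96 and 1.05) and a median of 0.63. The part of these cell types in the corneal values was not tested. In the conjunctiva the goblet cell mucin *Muc5ac* and the other 5 conjunctival markers were all tested. Of these, 3 were higher and 3 lower under CR, with 0 called by limma or by voom and 1 lower at an unadjusted p under 0.05 (*Krt19*). They summed to 34112 to 72297 normalized counts under AL and 27680 to 75027 under CR in the conjunctiva. The tissue also held muscle, fibroblast and leukocyte transcripts, and in bulk samples fewer cells of a type and less RNA per cell cannot be told apart.

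*Slc6a6* was the member that stood highest above its AL level under CR. In the cornea, AL libraries 1 to 5 held 4944, 4387, 4930, 7891 and 4945 normalized counts, and CR libraries 1, 2, 3, 4 and 7 held 11295, 13689, 14737, 8465 and 14248. The AL mean was 5419 ± 1402 (SD, n = 5) and the CR mean 12487 ± 2608 (n = 5), a log2 change of 1.21 ± 0.17 (SE, 95% interval 0.84 to 1.57) or 2.31-fold. The diets did not overlap, although CR 4, the lowest CR library, lay just above AL 4, the highest AL library. In the conjunctiva, AL libraries 1, 3, 4 and 5 held 6091, 4339, 4657 and 6160 normalized counts, and CR libraries 1 to 5 held 17058, 16745, 11571, 11987 and 18612. The mean went from 5312 ± 949 (n = 4) to 15195 ± 3200 (n = 5), a log2 change of 1.51 ± 0.18 (95% interval 1.13 to 1.88) or 2.84-fold. Again every CR library lay above every AL library, here with a wide gap between the diets. These values chose the gene and carry no test.

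**Figure D1:**
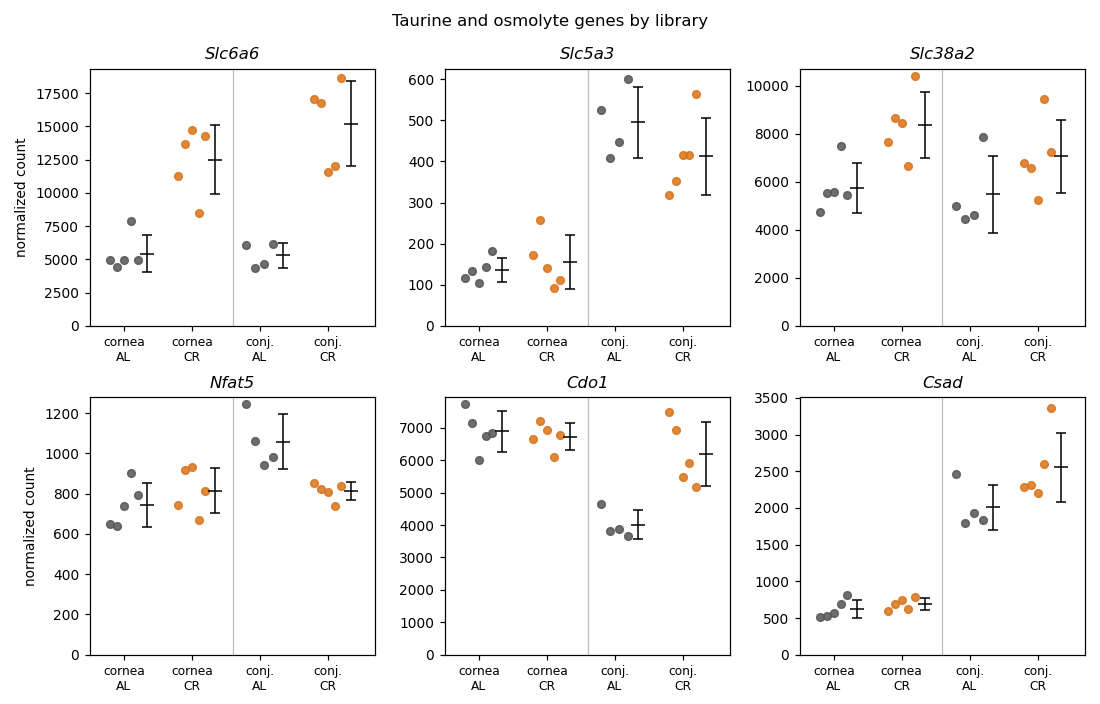
Normalized counts of 6 members in each library (points; grey AL, orange CR), with the mean and SD of each group to the right of its points. Each tissue was scaled in its own table. *Slc6a6* is the panel in which all CR points lie above all AL points in both tissues.

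Set side by side, the AL libraries of both tissues held *Slc6a6* at overlapping levels, 4387 to 7891 normalized counts (cornea) and 4339 to 6160 (conjunctiva), and so did the CR libraries, at 8465 to 14737 and 11571 to 18612. The tissues were scaled separately, so these levels were not tested against each other. *Slc6a6* is overlapped on the opposite strand by the long noncoding RNA gene *Gm44981*, which shared 43 (0.658%) of its 75-base transcript words.

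The share of features with 0 reads moved with *Slc6a6*. Over the 10 cornea libraries the Pearson r of its log2 value with this share was 0.821, and 0.807 once the mean of each diet was subtracted. Over the 9 conjunctiva libraries, r was 0.602, and 0.661 within diets. The points share their libraries and scaling, and r is given as a description. Cornea AL 4, the AL library with the most *Slc6a6*, also had the highest share of features at 0 among AL libraries, at 45.2%. With the share as a covariate, the cornea log2 change was 0.85 rather than 1.21.

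**Figure D2:**
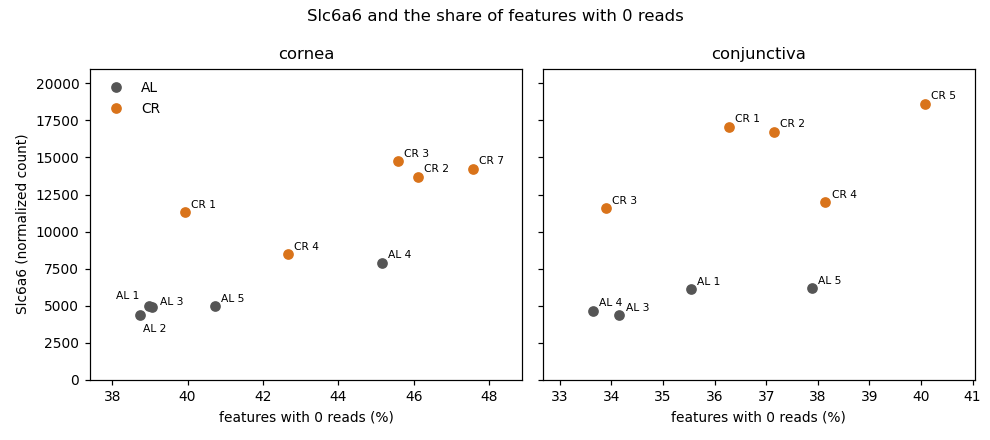
*Slc6a6* (vertical axis, normalized counts) against the percentage of features with 0 reads (horizontal axis) in each library, cornea on the left and conjunctiva on the right, AL in grey and CR in orange. Libraries with more features at 0 tended to hold more *Slc6a6* within a diet, with r of 0.807 (cornea) and 0.661 (conjunctiva) once diet means are subtracted. All CR points lie above all AL points, in the values by which the gene was chosen.

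The 6 genes whose log2 values followed *Slc6a6* most closely, out of 11928 others tested in both tissues, were *Coq10b*, *Per2*, *Ccnd2*, *Hlf*, *Fam76a* and *Wee1*, ranked by the smaller of the r values of the tissues. *Coq10b*, which encodes a coenzyme Q-binding protein of mitochondria, had an r of 0.958 in the cornea (n = 10) and 0.966 in the conjunctiva (n = 9). *Per2*, a core clock gene, had 0.940 and 0.944, and *Ccnd2*, the gene of cyclin D2, 0.957 and 0.940. *Hlf*, a clock-controlled transcription factor of the PAR bZIP family, had 0.916 and 0.958, *Fam76a* 0.926 and 0.910, and *Wee1*, a kinase that restrains entry into mitosis, 0.956 and 0.908. A gene that differs between diets in the same way has a high r by that alone. After the mean of each diet was subtracted, r was between 0.625 (*Fam76a*) and 0.944 (*Hlf*) in the cornea and between 0.456 (*Per2*) and 0.815 (*Coq10b*) in the conjunctiva. The same libraries chose these genes, which also favours a high r within diets, and no r over all genes is set beside it. *Nfat5* and *Slc38a2*, outside these 6, had 0.877 and 0.858 within diets in the cornea, and 0.490 and 0.318 in the conjunctiva.

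*Slc38a2*, the SNAT2 gene, was higher under CR in the cornea. AL libraries 1 to 5 held 4732, 5542, 5549, 7502 and 5425 normalized counts, and CR libraries 1, 2, 3, 4 and 7 held 7640, 8654, 8420, 6666 and 10380. Of the 5 CR libraries 4 lay above every AL library, and the groups overlapped through AL 4 and CR 4, the same libraries that came closest for *Slc6a6*. The mean went from 5750 ± 1036 (SD, n = 5) to 8352 ± 1374 (n = 5), a log2 change of 0.54 ± 0.13 (95% interval 0.27 to 0.81), which passed the adjusted p (limma, 0.0445) but at 1.45-fold fell short of the 1.5-fold needed to be called. Adjusted p was under 0.05 in 9 of 20 alternatives and ran from 0.00264 to 0.310, with 0.0555 in voom and 0.063 with no filter. With the share of features at 0 as a covariate the log2 change was 0.28 (limma adjusted p = 0.310), and the r of *Slc38a2* with that share was 0.882 over the 10 libraries and 0.831 within diets. Without AL 4 it was 0.64 (limma adjusted p = 0.00517) and without CR 4 it was 0.62 (0.0234), and in both fits the gene was called, whereas without AL 1, AL 2, AL 3, AL 5, CR 2, CR 3 or CR 7 adjusted p lay between 0.0658 and 0.1402.

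In the conjunctiva *Slc38a2* did not pass. AL libraries 1, 3, 4 and 5 held 4968, 4455, 4622 and 7838 normalized counts and CR libraries 1 to 5 held 6785, 6586, 5233, 9441 and 7218. All 5 CR libraries lay above AL 1, AL 3 and AL 4, but only CR 4 lay above AL 5. The log2 change was 0.38 ± 0.19 (95% interval −0.02 to 0.78, limma adjusted p = 0.547). The difference of the changes, conjunctiva minus cornea, was −0.16 (95% interval −0.63 to 0.31, adjusted p = 0.894). Over the cornea libraries *Slc38a2* followed *Slc6a6* with an r of 0.938, and 0.858 within diets, and in the conjunctiva with 0.593 and 0.318.

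*Slc5a3*, the sodium-coupled inositol transporter gene, did not pass in either tissue. In the cornea it was low, at 117, 133, 104, 144 and 181 normalized counts in AL libraries 1 to 5 and 173, 258, 140, 90.9 and 112 in CR libraries 1, 2, 3, 4 and 7. CR libraries held both the highest and the lowest value, and the log2 change was 0.12 ± 0.25 (95% interval −0.41 to 0.65, limma adjusted p = 0.835), or −0.09 without CR 2. In the conjunctiva it was at 526, 407, 446 and 601 in AL libraries 1, 3, 4 and 5 and at 319, 352, 415, 415 and 563 in CR libraries 1 to 5. The diets overlapped, with CR 1 and CR 2 below every AL library and CR 5 above AL 1, AL 3 and AL 4 (log2 change −0.27 ± 0.18, 95% interval −0.66 to 0.12, limma adjusted p = 0.687). *Slc5a3* lies within *Mrps6* on the same strand over 29138 of its 29152 bases, so reads of the pair may have been divided by the counting, and its values are uncertain to that extent. The lowest conjunctiva library lay above the highest cornea library, each on its own scale.

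*Cdo1*, the gene of cysteine dioxygenase, had, *Slc6a6* apart, the largest log2 change of the tested members in the conjunctiva, and in the cornea the smallest. In the conjunctiva AL libraries 1, 3, 4 and 5 held 4664, 3824, 3878 and 3666 normalized counts and CR libraries 1 to 5 held 7498, 6943, 5482, 5908 and 5169. All 5 CR libraries lay above all 4 AL libraries. The mean was 4008 ± 446 (SD, n = 4) under AL and 6200 ± 988 (n = 5) under CR, a log2 change of 0.62 ± 0.15 (95% interval 0.31 to 0.93) or 1.54-fold that did not pass the adjusted p (limma, 0.0937). It passed and was called with array weights (0.67, limma adjusted p = 0.0161), without CR 3 (0.66, 0.0423) and without CR 5 (0.68, 0.0379), and over all 19 alternatives adjusted p ran from 0.0161 to 0.295.

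In the cornea *Cdo1* was at 7728, 7136, 6016, 6732 and 6825 normalized counts in AL libraries 1 to 5 and at 6664, 7195, 6931, 6088 and 6767 in CR libraries 1, 2, 3, 4 and 7. The CR range lay inside the AL range, and the log2 change was −0.03 ± 0.10 (95% interval −0.23 to 0.17, limma adjusted p = 0.894), an interval that leaves out the point value of the conjunctiva. The change in the conjunctiva exceeded that in the cornea by 0.65 ± 0.18 (95% interval 0.29 to 1.01). This test takes the tissues as independent, although the study collected several tissues from a mouse and the titles of both tissues carry shared numbers. Taken per shared number (4 AL and 4 CR), the difference was 0.70 ± 0.17 (95% interval 0.33 to 1.07, limma adjusted p = 0.722). Without that pairing, the difference had an unadjusted p of 9.2e-04 in the fits across all genes (limma) and an adjusted p of 0.301. Of 11929 genes tested for it, 2 (0.0168%) passed, and 0 of the 5 members tested did, with *Nfat5* the other member at an unadjusted p under 0.05. With voom, limma's fit to the recovered reads, the count was also 0.

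*Csad*, the gene of cysteine sulfinic acid decarboxylase, did not pass in either tissue. In the cornea it was at 510, 528, 570, 697 and 813 normalized counts in AL libraries 1 to 5 and at 602, 685, 751, 624 and 782 in CR libraries 1, 2, 3, 4 and 7, and the CR values lay inside the AL range (log2 change 0.16 ± 0.14, 95% interval −0.14 to 0.46, limma adjusted p = 0.579). In the conjunctiva it was at 2466, 1800, 1938 and 1841 in AL libraries 1, 3, 4 and 5 and at 2283, 2315, 2211, 2593 and 3363 in CR libraries 1 to 5. There AL 1 alone among AL libraries reached the CR values. The log2 change was 0.34 ± 0.16 (95% interval 0.01 to 0.67, limma adjusted p = 0.510). Every conjunctiva library lay above every cornea library on these separate scales. *Csad* shares 1547 bases with *Zfp740* on the opposite strand.

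*Nfat5*, the gene of the tonicity factor itself, was lower in every CR library of the conjunctiva but did not pass. AL libraries 1, 3, 4 and 5 held 1247, 1060, 943 and 980 normalized counts and CR libraries 1 to 5 held 854, 823, 806, 737 and 839. The mean was 1058 ± 135 (SD, n = 4) under AL and 812 ± 45.7 (n = 5) under CR, a log2 change of −0.37 ± 0.13 (95% interval −0.66 to −0.09, limma adjusted p = 0.339). In the cornea the values were 647, 639, 738, 904 and 792 in AL libraries 1 to 5 and 746, 919, 932, 667 and 811 in CR libraries 1, 2, 3, 4 and 7. These overlapped, with a log2 change of 0.13 ± 0.13 (95% interval −0.15 to 0.41, limma adjusted p = 0.627). The difference of the changes, conjunctiva minus cornea, was −0.51 ± 0.19 (95% interval −0.89 to −0.12, adjusted p = 0.515).

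*Akr1b3*, the aldose reductase gene, had 0 reads in all 19 libraries and was not tested. A count of 0 allows up to 3 reads, which is 2.27 to 3.37 normalized counts depending on the library, for counting error only. Of its 1452 transcript words of 75 bases, 1053 (72.5%) also occur in transcripts of 4 other genes, *Gm38056*, *Gm6644*, *Gm6736* and *Gm12138*, and so do 324 of the 426 words of its last 500 bases. For the other members this share was at most 1.02%. *Gm6644* was also listed at 0. Whether reads of *Akr1b3* were lost because they match several genes was not tested, so the 0 does not settle whether the gene was expressed.

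**Figure D3:**
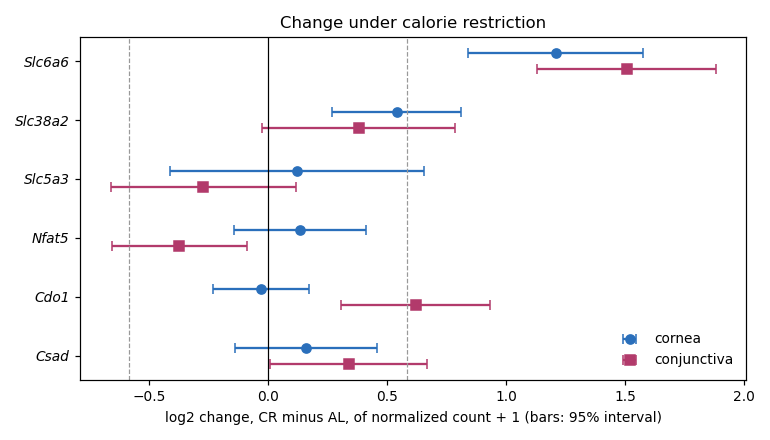
Log2 change of each tested member, CR minus AL, with its 95% interval, cornea as blue circles and conjunctiva as purple squares. Dashed lines mark a 1.5-fold change either way. *Slc6a6* was chosen for its change and its intervals are shown as a description. The *Cdo1* intervals of the tissues do not overlap.

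Among all 12278 genes tested in the cornea, 0.749% were called higher and 0.472% lower under CR, and the diets did not overlap for 3.97%. Among 13929 genes in the conjunctiva, these shares were 0.223%, 0.136% and 3.87%. Of the members, *Slc6a6* was past both thresholds in both tissues, but the same values chose it, so this is no test. Of the other 5 tested, 0 were called in either tissue by limma on log2 values or by voom. At an unadjusted p under 0.05 stood *Slc38a2* in the cornea and *Cdo1*, *Nfat5* and *Csad* in the conjunctiva. The share of all genes tested at that unadjusted threshold was not taken, so such counts, here and for the lists, cannot be set against it. The members whose diets did not overlap were *Slc6a6* in the cornea and *Slc6a6*, *Cdo1* and *Nfat5* in the conjunctiva. Over all genes tested, the median log2 change was −0.03 (cornea) and −0.02 (conjunctiva). When conjunctiva libraries were scaled by total reads this median was −0.10, and the log2 change of *Cdo1* was then 0.53.

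Markers of some other cell types moved with diet in the conjunctiva. The 6 fibroblast markers were all lower under CR and summed to 39250 to 58882 normalized counts in AL libraries and 25864 to 51295 in CR libraries, and 2 of them, *Col1a1* and *Col3a1*, fell. The 6 leukocyte markers summed to 2277 to 3178 under AL and 1714 to 1977 under CR, all 5 tested were lower, and *Cd74* fell. The 4 skeletal muscle markers ran from 9226 to 42780 under AL and from 10185 to 87164 under CR. The 8 corneal epithelial markers ran from 109478 to 128549 and from 104151 to 157299, with 4 of 5 CR libraries above every AL library. Of these 8 markers, 6 were higher under CR and 2 lower, with 0 called by limma or by voom. The lower ones were *Krt12* (log2 change −0.78) and *Krt14* (−0.10). None of the markers in these 4 lists was at 0 in all libraries. The lacrimal gland markers were low but also moved, summing to 23.3 to 97.9 under AL and 0 to 9.97 under CR, with every CR library below every AL library and *Mup5* and *Prol1* at 0 throughout. The 3 endothelial markers were all lower under CR, with 0 called by limma or by voom. They summed to 1155 to 1604 normalized counts under AL and 449 to 1715 under CR. The part of these cell types in the conjunctival values of *Slc6a6*, *Cdo1*, *Csad* and *Nfat5* was not tested.

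The other genes of the pathway were taken from 5 lists. The list of taurine synthesis and cysteine supply held 11 genes, of which 7 were tested in the cornea and 8 in the conjunctiva. No gene passed (0 in each tissue by limma and by voom), with 1 and 2 higher at an unadjusted p under 0.05, and the median log2 change was 0.27 and 0.32. *Cbs*, the gene of the enzyme that joins homocysteine and serine on the way to cysteine, went from 71.4 ± 20.3 to 124 ± 47.8 normalized counts in the cornea (log2 change 0.74 ± 0.29, limma adjusted p = 0.198). *Slc7a11*, which encodes the cystine carrier xCT, went from 406 ± 121 to 632 ± 169 in the conjunctiva (0.65 ± 0.21, limma adjusted p = 0.282). *Gclc*, the gene of the catalytic subunit that starts glutathione synthesis from cysteine, went from 922 ± 245 to 1508 ± 636 there (0.66 ± 0.25, limma adjusted p = 0.408). None of these 3 separated the diets. *Gadl1*, whose product can also make taurine, had 0 reads in every cornea library.

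The list of osmolyte transporters and enzymes held 19 genes, with 13 tested in the cornea and 15 in the conjunctiva. In the cornea 1 gene fell and 0 rose, 5 were lower at an unadjusted p under 0.05, and the median log2 change was −0.18. *Akr1b7*, an aldo-keto reductase related to aldose reductase, was the gene that fell, with 1559, 1504, 1359, 1037 and 1343 normalized counts in AL libraries 1 to 5 and 729, 752, 741, 1172 and 769 in CR libraries 1, 2, 3, 4 and 7. All CR libraries but CR 4 lay below every AL library, and AL 4 was the lowest AL library. The mean went from 1360 ± 203 (SD, n = 5) to 833 ± 190 (n = 5), a log2 change of −0.72 ± 0.14 (limma adjusted p = 0.0163). Its adjusted p was under 0.05 in 12 of 20 alternatives, and it was lost with the share of features at 0 as a covariate (−0.54, limma adjusted p = 0.123), and without AL 1, AL 2, AL 3, AL 5, CR 2 or CR 3 (0.0533 to 0.0693). *Akr1b7* shares 5.3% of its words with *Gm13857*.

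In the conjunctiva no osmolyte gene passed by limma or by voom, with 1 higher and 2 lower at an unadjusted p under 0.05. The diets did not overlap for 3 of the 15 tested, against 3.87% of all genes tested there. The median was −0.30, against −0.02 over all genes. *Akr1b7* had a log2 change of −0.36 ± 0.17 there (limma adjusted p = 0.533). The next 3 genes were chosen after their values were seen. *Akr1b10*, another aldo-keto reductase gene, was lower in every CR library of the cornea, 188 to 243 against 279 to 357 normalized counts, and just missed the threshold (log2 change −0.61 ± 0.15, limma adjusted p = 0.0504). *Sord*, the gene of sorbitol dehydrogenase, which turns sorbitol into fructose, was higher in every CR library of the conjunctiva, 477 to 742 against 368 to 413 (0.64 ± 0.15, limma adjusted p = 0.0976). *Impa2*, an inositol monophosphatase gene, was lower in every CR library of the conjunctiva, 48.5 to 120 against 127 to 146 (−0.85 ± 0.28, limma adjusted p = 0.283), and in 4 of 5 CR libraries of the cornea (−1.10 ± 0.34, limma adjusted p = 0.108). Values of *Sord* and *Impa2* are uncertain, since 26.1% and 23.9% of their words occur in another gene. For *Impa2* these include all 426 words of the last 500 bases of its transcript, shared with *B430212C06Rik*, and for *Sord* 0 of 426.

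**Figure D4:**
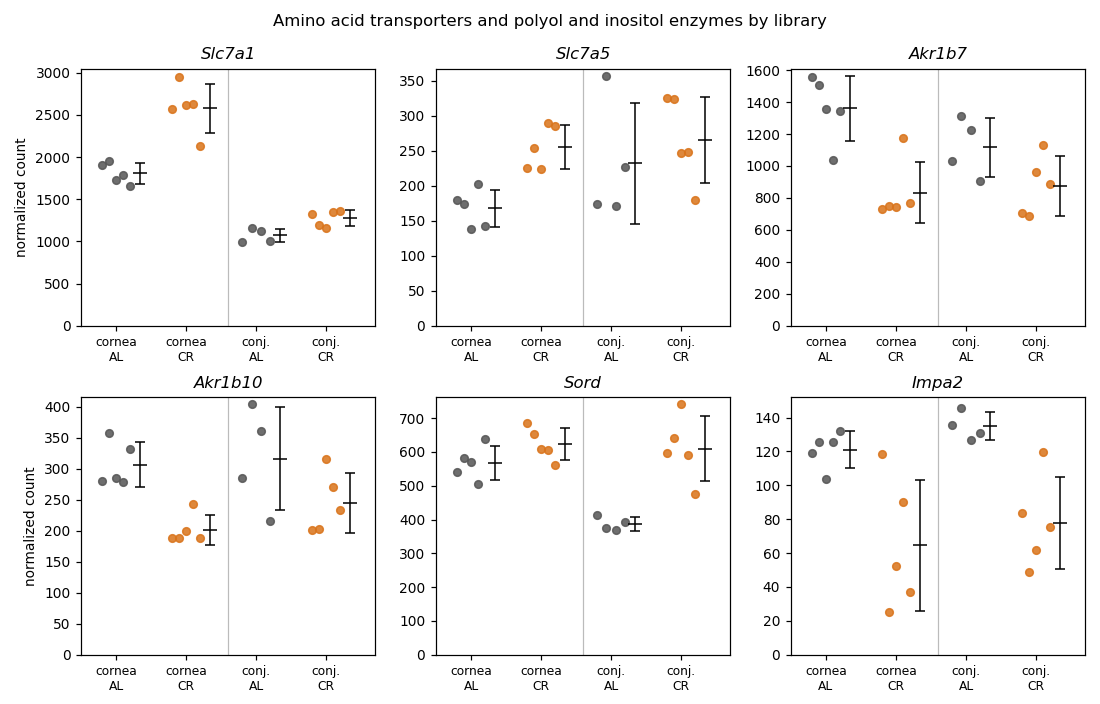
Normalized counts of 6 listed genes in each library (points; grey AL, orange CR), with the mean and SD of each group to the right of its points. *Slc7a1*, *Slc7a5* and *Akr1b10* separate the diets in the cornea, and *Slc7a1*, *Sord* and *Impa2* in the conjunctiva.

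The amino acid response list, genes that ATF4 raises when amino acids run short and *Atf4* itself, held 13 genes, with 12 tested in the cornea and 13 in the conjunctiva. No gene was called in either tissue by limma or by voom. In the cornea 3 were higher and 1 lower at an unadjusted p under 0.05, with a median of −0.04, and in the conjunctiva 2 were higher, with a median of 0.08. *Slc7a1*, the gene of the cationic amino acid carrier CAT1, passed the adjusted p alone in the cornea. AL libraries 1 to 5 held 1901, 1953, 1729, 1788 and 1659 normalized counts and CR libraries 1, 2, 3, 4 and 7 held 2572, 2952, 2615, 2627 and 2135. All 5 CR libraries lay above all AL libraries, with a log2 change of 0.51 ± 0.11 (limma adjusted p = 0.0195), or 1.42-fold. Its log2 change with the share of features at 0 as a covariate was 0.56 (limma adjusted p = 0.0259), and adjusted p lay between 0.0693 and 0.0753 without AL 3, AL 5, CR 2 or CR 3.

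In the conjunctiva *Slc7a1* was also higher in every CR library, 1160 to 1356 against 995 to 1156, without passing (0.25 ± 0.13, limma adjusted p = 0.553). *Slc7a5*, the light chain of the large neutral amino acid carrier LAT1, held 139 to 203 normalized counts in AL and 224 to 290 in CR libraries of the cornea, again without overlap (0.61 ± 0.17, limma adjusted p = 0.0719). In the conjunctiva its diets overlapped (0.22 ± 0.24, limma adjusted p = 0.827). *Ddit4*, an inhibitor of mTORC1 signalling, had a log2 change of 0.70 ± 0.26 in the conjunctiva (limma adjusted p = 0.386) and −0.01 ± 0.14 in the cornea (0.976). *Atf4*, chosen after its values were seen, had −0.27 ± 0.11 in the cornea (limma adjusted p = 0.208).

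The 16 genes of cell volume channels and ion transport, 15 tested in each tissue, gave no call by limma or by voom. At an unadjusted p under 0.05 there were 2 higher and 1 lower in the cornea and 0 in the conjunctiva, and the medians were 0.05 and −0.03. *Slc12a2*, the sodium-potassium-chloride carrier NKCC1, went from 5532 ± 224 to 4435 ± 590 normalized counts in the cornea, with every CR library below every AL library (log2 change −0.33 ± 0.10, limma adjusted p = 0.119). *Kcnn4*, a calcium-activated potassium channel gene, was low in the cornea, at 7.85 ± 7.14 and 24.9 ± 5.55 (1.78 ± 0.64, limma adjusted p = 0.161). *Lrrc8e*, a subunit of the volume-regulated anion channel, went from 108 ± 25.4 to 162 ± 38.02 (0.59 ± 0.23, limma adjusted p = 0.198).

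The 8 tonicity response targets, 6 tested in each tissue, gave no call by limma or by voom either, with 1 lower at an unadjusted p under 0.05 in each tissue and medians of −0.04 and −0.11. *Sgk1*, a kinase gene induced by cell shrinkage and by glucocorticoids, had log2 changes of 0.34 ± 0.19 in the cornea and 0.31 ± 0.19 in the conjunctiva (limma adjusted p = 0.348 and 0.657). *S100a4*, a calcium-binding protein gene, had −0.54 ± 0.25 and −0.14 ± 0.17 (limma adjusted p = 0.267 and 0.847). *Ccl2*, a monocyte chemokine gene, was too low to test in the cornea and went from 61.4 ± 83.4 to 7.87 ± 7.65 normalized counts in the conjunctiva (limma adjusted p = 0.493).

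**Figure D5:**
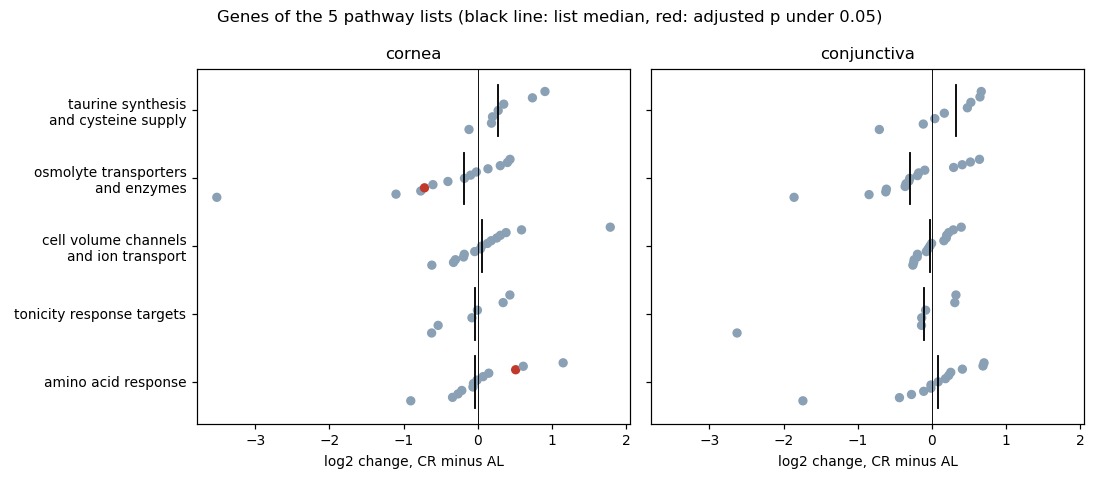
Log2 change, CR minus AL, of each tested gene of the 5 pathway lists, cornea on the left and conjunctiva on the right, with a black line at the median of the list and red for an adjusted p under 0.05. The red points are *Akr1b7* and *Slc7a1* in the cornea.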

How the data were processed

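RNA was sequenced from 10 cornea and 9 conjunctiva libraries. By the study's methods the authors trimmed reads with cutadapt, aligned them with STAR to mm10 and counted them with HTSeq, whereas the submitters' processing notes name GRCm39 and DESeq2. The methods name an oligo(dT)-primed kit and the labels a stranded one, so library type and the use of strand are not settled, and levels were not compared between genes. The deposited values are log2(normalized count + 1), scaled by the authors with DESeq2 size factors in a table per tissue. Turned back to counts, 100% of values came out whole (tolerance 0.001 reads). Of 24557 features, 5 that repeated the symbol of an earlier entry were left out, with the first entry kept, and 0 columns were unmapped.

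Diets were compared within each tissue with limma 3.58.1 (statmod 1.5.0, R 4.3.3; intensity trend, robust moderation) on log2(normalized count + 1), keeping genes that averaged 10 or more normalized counts, with Benjamini-Hochberg adjustment over all genes. A call needed an adjusted p under 0.05 and a change over 1.5-fold, the study's thresholds. Fold changes are on this log2 scale, which understates those of low genes. The changes in the tissues were set against each other through their difference and its standard error (Satterthwaite degrees of freedom). The procedure was tested on simulated data. Named were the members, called genes of each list or otherwise the 3 with the smallest p in either tissue, and the 6 genes most like *Slc6a6*. Members and lists were chosen with earlier results of these data known. Alternatives were pseudocounts of 0.5 and 10, no filter or a mean of 50, quantile and total-read scaling, voom on the recovered reads, array weights, the share of features at 0 as a covariate, a replicate block, and leaving out each library. A tissue difference taken per shared title number was added after seeing the data.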

Additional observations from a re-analysis of the deposited data

Results flagged for a closer look

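Each member was checked in each group for 1 library far from the rest by Dixon's criterion, which chance meets in about 1 of 20 groups, and 2 of 24 groups met it. *Slc6a6* stood at 7891 normalized counts in cornea AL 4, where the other AL libraries held 4387 to 4945. That library had 45.2% of features at 0, against 38.7% to 40.7% in the others. *Slc38a2* stood at 7838 normalized counts in conjunctiva AL 5, where the other AL libraries held 4455 to 4968. That library had 37.9% of features at 0, against 33.6% to 35.5%. Without cornea AL 4 the log2 change of *Slc6a6* was 1.35, and without conjunctiva AL 5 *Slc38a2*, at 0.57, still missed the threshold (limma adjusted p = 0.3493). The part of the share of features at 0 in these values was not tested.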

How the results depend on the processing

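Genes called in the cornea numbered 150, and 99 with voom, 705 with array weights, 62 with the share of features at 0 as a covariate and 46 with the replicate block. Leaving out a library gave 53 to 536, moving the count over 1.5 times without AL 1, AL 2, AL 3, AL 4, AL 5, CR 1, CR 2 or CR 3. In the conjunctiva, 50 genes were called, 149 with array weights, 10 with the replicate block, and 26 to 127 when a library was left out, moving over 1.5 times without AL 1, AL 4, AL 5, CR 1, CR 2, CR 3 or CR 5. Members called numbered 1 in each tissue, which was *Slc6a6*, the gene chosen by these values. In the cornea there were 0 with the replicate block and 1 to 2 when a library was left out, and in the conjunctiva 2 with array weights and 1 to 2. With the replicate block *Slc6a6* was therefore not called in the cornea, at a log2 change of 1.13. The log2 change of *Slc6a6* in the cornea was 0.85 with the covariate. The direction of *Nfat5* and *Csad* in the cornea turned with the covariate (−0.0757 and −0.0537), that of *Slc5a3* without CR 2 (−0.0866, range over left-out libraries −0.0866 to 0.287), and that of *Cdo1* without AL 1 (0.0117) or CR 4 (0.00459; range −0.0785 to 0.0117). The tissue difference of *Slc38a2* turned without conjunctiva AL 5 (0.0262; range −0.272 to 0.0262), and 0 members passed that test in all 23 alternatives. These causes were not tested. Same-numbered AL and CR libraries deviated together with correlations between −0.297 and 0.288 (cornea) or −0.0619 and 0.0526 (conjunctiva), so the numbers were not taken to pair them. Cornea and conjunctiva libraries of the same diet and number did so with −0.417 to 0.193, and the tissue difference per shared number was added after seeing the data. The replicate block also ended the call of *Akr1b7* (limma adjusted p = 0.189) and the adjusted p of *Slc38a2* (0.304) and *Slc7a1* (0.0985) in the cornea. Reads carried no molecular identifiers, so floors cover counting error only.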
